A study of Mus musculus with 6 samples.

Results

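The interleukin-1 (IL-1) family genes described here are 9 ligand, antagonist and receptor genes, Il1a, Il1b, Il18, Il1rn, Il1r1, Il1r2, Il1rap, Il1rl1 and Il18rap, followed through leukemias that differ in Runx1. They were chosen by name, and the choice was made because Il1r2 and Il1rn moved in opposite directions between the groups. The Runx1-KO against Control values of these genes are therefore given as a description, without a p-value for any of them. Counts of calls among them stand beside the shares over all genes, and nothing is read from those counts. Of the 9 genes, 8 had at least 1 probe set annotated to their symbol alone, 16 probe sets in all, among 18194 genes on the array. Il1rl1, the receptor for interleukin-33, was not analysed here.

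Bone marrow cells of the C57BL/6 strain, with Runx1 either excised or intact, received MLL-ENL, an oncogenic fusion that joins part of the chromatin regulator MLL to ENL, and grew into leukemias in congenic mice. Leukemic cells were taken when the recipients became moribund. The Runx1-KO group held 3 arrays and the Control group 3, each from an independent leukemia, and both groups carried MLL-ENL. The agent of excision, the age of the mice and the purity of the harvested cells are not given in the sources used here, so cells of the host can be present in every sample. RNA was hybridised to 1-colour mouse arrays, and values are probe set intensities, which allow arrays to be compared for 1 probe set but not 1 gene with another.

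Median intensity per array was 24.4 to 25.99. The brightest of 27 control probe sets with no target in the sample set each array's background limit, which lay between 14.1 and 22.5. Runx1 itself had an intensity of 1128 to 1629.5 under the label Runx1-KO, against 680.3 to 1021 under the label Control (limma adjusted p = 0.322), and 6 of 6 probe sets were higher in Runx1-KO. Whether any of them lies in the excised part is not known here. The Runx1 signal thus does not check the label, and all directions below follow the labels. Eif2s3y, on the Y chromosome, was below the limit in all arrays labelled Runx1-KO and at 638 to 707 in Control, so that sex and genotype cannot be told apart. Xist, a transcript of female cells, had 1624 to 1895 in Runx1-KO and 330.8, 85.4 and 25.3 in Control 1, 2 and 3. It was above the limit on all Control arrays as well, and the source of that signal was not tested. The leukocyte gene Ptprc, the myeloid peroxidase gene Mpo and the MLL fusion target Hoxa9 lay above the limit on all 6 arrays. Gapdh signal at the 3' end over that at the 5' end was 7.10 in Runx1-KO 1 and 2.67 to 3.02 on the other 5 arrays, and the summed intensity of 7 erythroid genes was 6594 in Control 1 and 837.6 to 1265 on the other 5. Tfrc, the brightest of them on those 5, had 1971 in Control 1 and 744 to 1196 there, and Slc4a1 had 2879 and 15.0 to 106.9.

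IL-1alpha and IL-1beta signal through the receptor encoded by Il1r1, which must pair with the accessory protein encoded by Il1rap before the adaptor MyD88 can bind. Il1r2 encodes a decoy that binds IL-1 but lacks the signalling domain, and Il1rn encodes a soluble antagonist that occupies Il1r1 without recruiting the accessory protein. Interleukin-18, encoded by Il18, belongs to the same family and uses its own receptor pair, of which Il18rap encodes the accessory chain. In myeloid tissue the decoy is a feature of neutrophils, and the antagonist is made by monocytes, macrophages and neutrophils.

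Promoter sequence is shown for the 3 genes whose arrays did not overlap between the groups, Il1r2, Il1rn and Il18rap, since the groups differ in a DNA-binding protein. RefSeq gave windows of 300 bases, 250 before and 50 after each start site (build GRCm38.p6), for 9 of 9 genes and 11 windows for the 8 measured genes. Capitals mark matches on either strand to the RUNX core (TGTGGT or TGCGGT), a PU.1-type ETS site (GAGGAAG), AP-1 (TGANTCA), NF-kB (GGGNN then TTTCC) or C/EBP (TTGCNNAA). The 4 windows below lie on the plus strand and are written 5′ to 3′, and 2 of the 3 windows of Il1rn are shown, since the one left out overlaps the downstream window and holds the same NF-kB match, 30 bases after its start.
Il1r2, chr1:40085843-40086142: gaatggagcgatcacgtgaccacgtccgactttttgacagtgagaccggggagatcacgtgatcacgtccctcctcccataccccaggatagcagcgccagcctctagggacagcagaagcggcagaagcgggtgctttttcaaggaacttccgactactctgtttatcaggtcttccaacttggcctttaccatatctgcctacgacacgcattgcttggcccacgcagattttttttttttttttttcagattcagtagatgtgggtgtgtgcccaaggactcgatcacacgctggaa
Il1rn, upstream start, chr2:24336610-24336909: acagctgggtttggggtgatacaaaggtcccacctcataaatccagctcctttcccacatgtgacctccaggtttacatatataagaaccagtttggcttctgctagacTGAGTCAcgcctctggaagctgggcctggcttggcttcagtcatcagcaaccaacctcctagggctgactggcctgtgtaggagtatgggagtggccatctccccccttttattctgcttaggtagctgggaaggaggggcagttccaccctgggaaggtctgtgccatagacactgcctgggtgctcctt
Il1rn, downstream start, chr2:24345121-24345420: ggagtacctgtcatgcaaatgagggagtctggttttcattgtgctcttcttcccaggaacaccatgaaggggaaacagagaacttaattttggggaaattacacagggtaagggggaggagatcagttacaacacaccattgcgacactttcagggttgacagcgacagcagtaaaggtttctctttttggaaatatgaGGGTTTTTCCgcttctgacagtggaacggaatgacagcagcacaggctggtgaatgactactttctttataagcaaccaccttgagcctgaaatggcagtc
Il18rap, chr1:40515112-40515411: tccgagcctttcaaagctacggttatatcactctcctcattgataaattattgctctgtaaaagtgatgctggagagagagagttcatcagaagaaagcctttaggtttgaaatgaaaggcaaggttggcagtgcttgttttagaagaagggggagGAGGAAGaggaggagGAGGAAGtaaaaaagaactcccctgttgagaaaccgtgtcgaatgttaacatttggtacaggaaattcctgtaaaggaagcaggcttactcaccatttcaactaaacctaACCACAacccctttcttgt

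The RUNX core was found in 2 of the 11 windows of the measured genes, 32 bases after the start of Il18rap and 65 bases before that of Il18. All shares here are per window, and Il1rn and Il1r1 were searched over more than a single window. Among all 32851 windows of this length, 22.4% held the core. The Il1r2 window held 0 matches to the 5 motifs. Il1rn had an AP-1 match 141 bases before its upstream start (7.81% of all windows hold one) and an NF-kB match 51 bases before its downstream start (1.63%). Il18rap had 2 ETS matches, 94 and 79 bases before its start (13.6%), and C/EBP was matched only in Il1r1 among the measured genes (10.8%). A match is a stretch of letters and not a bound site, and a window without one says nothing about the factor.

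**Figure D1:**
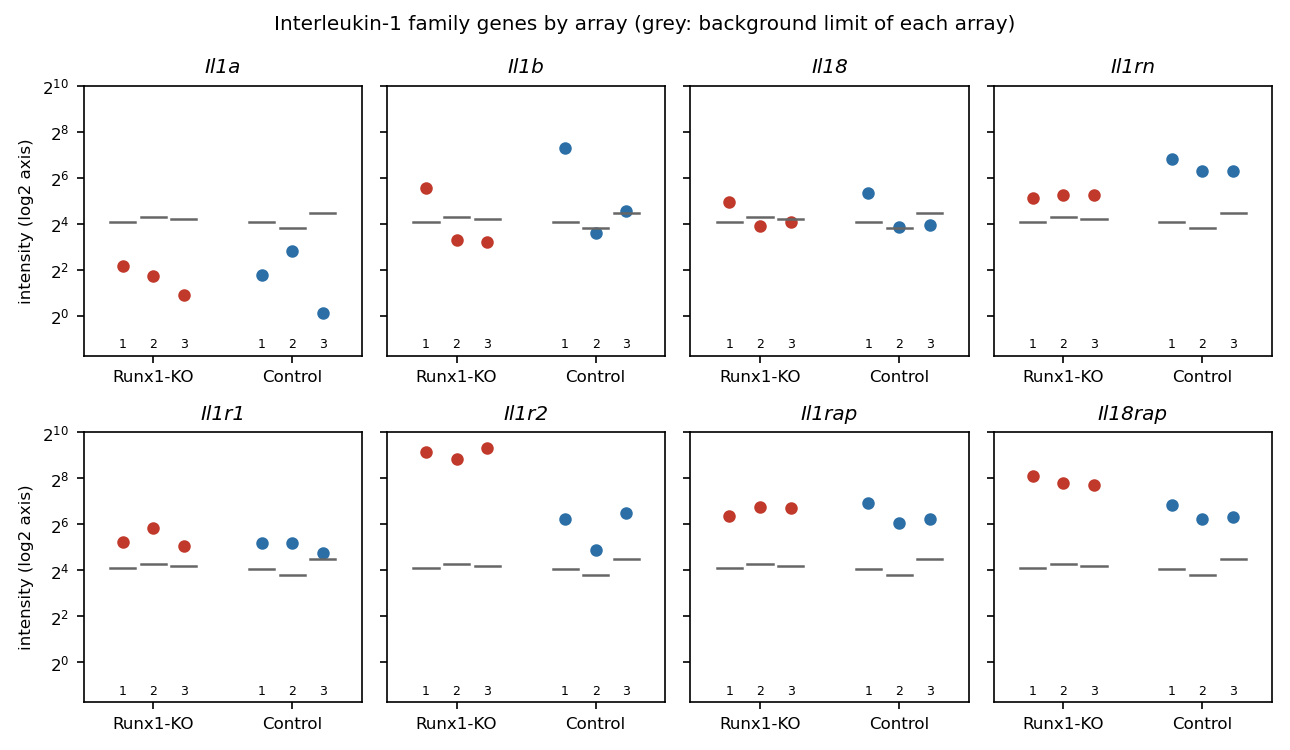
Intensity (log2 axis) of the 8 measured genes on each of the 6 arrays, Runx1-KO in red and Control in blue, numbered by replicate, with a grey bar at the background limit of each array. Il1r2 and Il18rap lay higher in all Runx1-KO arrays, Il1rn lay lower, and Il1b and Il18 were highest on the arrays numbered 1 of both groups.

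Of the 8 measured genes, 5 lay above the background limit on all 6 arrays (Il1rn, Il1r1, Il1r2, Il1rap and Il18rap), 2 on some arrays (Il1b and Il18) and 1 on none (Il1a). No filter on low values was applied. Across the 8, 5 log2 differences were above 0 and 3 below, with a median of 0.12 against -0.01 over all genes. After Benjamini-Hochberg adjustment of the limma fit, 0 of the 8 passed 0.05, where 0.0879% of all genes passed (0.033% higher and 0.055% lower in Runx1-KO), and 3 had an unadjusted p under 0.05, where 12.6% of all genes did (5.62% higher, 7.01% lower). The groups did not overlap for 2 genes that were higher in Runx1-KO (9.17% of all genes) and for 1 that was lower (11.7%), where 20.9% of all genes did not overlap in either direction. Among their 16 probe sets, 3 were higher without overlap (8.64% of all probe sets) and 2 lower (11.8%). As these genes were picked on this contrast, nothing is read from the counts.

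The decoy receptor gene had the widest separation of the family. Il1r2, measured by 1 probe set, had intensities of 568, 459 and 643 in Runx1-KO 1, 2 and 3, and of 76.1, 30.0 and 89.8 in Control 1, 2 and 3. The lowest Runx1-KO array was thus well above the highest Control array, and the Control arrays differed more among themselves than the Runx1-KO arrays did. On the log2 scale the level was 9.11 ± 0.25 in Runx1-KO and 5.88 ± 0.85 in Control (SD, n = 3 each), a difference of 3.22 ± 0.44 (SE) or 9.35-fold. Control 2 held the lowest value, and the difference was 2.74 without that array. In bulk samples such as these, more cells of a type and more RNA per cell cannot be told apart.

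The signalling receptor gene, its neighbour on the chromosome, did not separate the groups. Il1r1 had intensities of 38.1, 56.9 and 33.3 in Runx1-KO and of 36.3, 36.5 and 26.7 in Control on its brighter probe set, a log2 difference of 0.34 ± 0.27 (SE). The groups overlapped, and Control 3 stood close to its background limit of 22.5. Its other probe set was below the limit on all 6 arrays.

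For the accessory protein gene Il1rap, the probe sets disagreed. The brightest of its 5 probe sets gave 82.7, 107.8 and 103.7 in Runx1-KO and 122.1, 67.5 and 75.0 in Control, a log2 difference of 0.19 ± 0.28 (SE). The next, also above the limit on all arrays, gave 64.9, 96.5 and 53.1 in Runx1-KO and 117.3, 77.2 and 75.6 in Control, a difference of -0.35 ± 0.31. Another, above the limit on 2 arrays of each group, had a difference of -0.43 ± 0.28, and the remaining 2 were below it throughout. The groups overlapped on all 5 probe sets, and the mean over them gave a difference of -0.22, so no direction is given for Il1rap.

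The accessory chain of the interleukin-18 receptor was higher in Runx1-KO on both of its probe sets. On the first, Il18rap had 279.4, 221.5 and 211.9 in Runx1-KO and 115.8, 74.4 and 79.4 in Control, a log2 difference of 1.42 ± 0.25 (SE, n = 3 each) or 2.68-fold. On the second it had 177.4, 262.7 and 179.8 in Runx1-KO and 74.9, 49.6 and 75.9 in Control, a difference of 1.63 ± 0.28 or 3.10-fold. Both probe sets placed all Runx1-KO arrays above all Control arrays. The ligand-binding chain, Il18r1, was above its limit on 1 array of each group, Runx1-KO 1 (34.7) and Control 1 (23.8).

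The antagonist gene went the other way. Il1rn had intensities of 34.7, 37.9 and 38.8 in Runx1-KO and of 111.8, 79.8 and 79.1 in Control on its brightest probe set. All Control arrays were above all Runx1-KO arrays, which lay within a narrow range. The log2 level was 5.21 ± 0.09 in Runx1-KO and 6.48 ± 0.28 in Control (SD, n = 3 each), a difference of -1.26 ± 0.21 (SE), or 2.40-fold lower in Runx1-KO. A second probe set gave 22.0, 32.3 and 14.2 in Runx1-KO and 66.2, 36.9 and 56.3 in Control, again without overlap. With Runx1-KO 3 below its limit there, Il1rn was at least 2.18-fold lower on that probe set. The third probe set, near background in both groups, had a difference of -0.36 ± 0.56 and overlapped. The mean over the 3 gave -0.96.

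**Figure D2:**
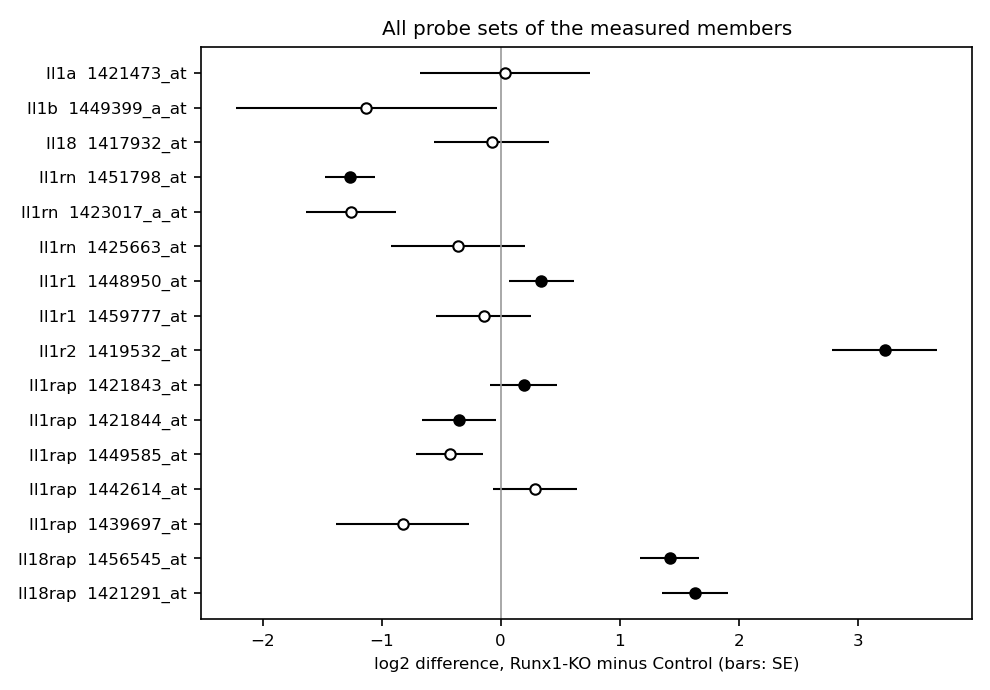
Log2 difference, Runx1-KO minus Control, of all 16 probe sets of the measured genes, with bars of 1 SE from the limma fit; filled points lay above the background limit on all 6 arrays and open points did not. Il1r2 and both probe sets of Il18rap lie to the right of 0, the 3 probe sets of Il1rn to the left, and those of Il1rap on both sides.

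The ligand genes Il1b and Il18 were highest on the arrays numbered 1 of both groups. Il1b, the chief inflammatory ligand of myeloid cells, had an intensity of 46.9, 9.87 and 9.33 in Runx1-KO 1, 2 and 3, and of 159.3, 12.1 and 23.4 in Control 1, 2 and 3. In each group the array numbered 1 was the highest, and 3 of the other 4 arrays lay below their limits. Arrays of both groups were among these, so no fold or bound is given, and the groups overlapped. With the arrays at their measured values the log2 difference had an SE of 1.09 and was -0.05 without Control 1, so no direction is given for Il1b. Il18 had 30.7, 15.1 and 17.0 in Runx1-KO and 40.1, 14.8 and 15.5 in Control. Of the arrays not numbered 1, 4 in all, 3 lay below their limits and Control 2 just above. Il1a had 4.54, 3.33 and 1.89 in Runx1-KO and 3.42, 7.15 and 1.09 in Control, all below the limit, so no level can be stated.

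Il1b, Il18 and, on its first probe set, Il18rap shared this ordering. The second Il18rap probe set did not, with 177.4, 262.7 and 179.8 in Runx1-KO and 74.9, 49.6 and 75.9 in Control. The Il18rap correlations below use the first and so depend on that choice. After each group's mean was subtracted, Il1b correlated with Il18 at r = 0.98 and with Il18rap at r = 0.99 over the 6 arrays. The points share their arrays, and 2 of the 6, those numbered 1, carry most of the spread. In this measure the genes most like Il1b were Pim1, Ms4a6d and Nfkbiz (r of 0.999, 0.997 and 0.996), and those most like Il18rap were Nfkbiz, Tmem127 and Aplp2 (r of 0.999, 0.998 and 0.997). Nfkbiz, which encodes an IL-1 induced nuclear cofactor of NF-kB, had 949, 297 and 243 in Runx1-KO and 1435, 187 and 272 in Control. Cxcl2, a neutrophil chemokine, had 1020 in Runx1-KO 1 against 98.4 and 151.9 in the other Runx1-KO arrays, and 3547 in Control 1 against 306.7 and 140.3 in the other Control arrays. Tnfaip3, a feedback inhibitor of NF-kB, had 481, 188 and 172 in Runx1-KO and 891, 289.5 and 285 in Control.

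Of the 16 IL-1 responsive genes listed, 8 had the array numbered 1 as the highest in both groups (50%), against 14.2% of all 18194 genes. Those were Nfkbia, Nfkbiz, Tnfaip3, Cxcl2, Il6, Ptgs2, Ccl2 and Socs3, of which Il6 was below the limit on all arrays. Among mature neutrophil genes the count was 8 of 15 (53.3%), among monocyte and macrophage genes 2 of 16 (12.5%). This ordering was looked for after the values were seen, and the numbers are not stated to mark a shared day or batch. Over all genes the deviations of Runx1-KO 1 and Control 1 correlated at r = -0.01. The high Gapdh ratio of Runx1-KO 1 and the erythroid signal of Control 1 fell on the same arrays, and their part in the ordering was not tested.

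**Figure D3:**
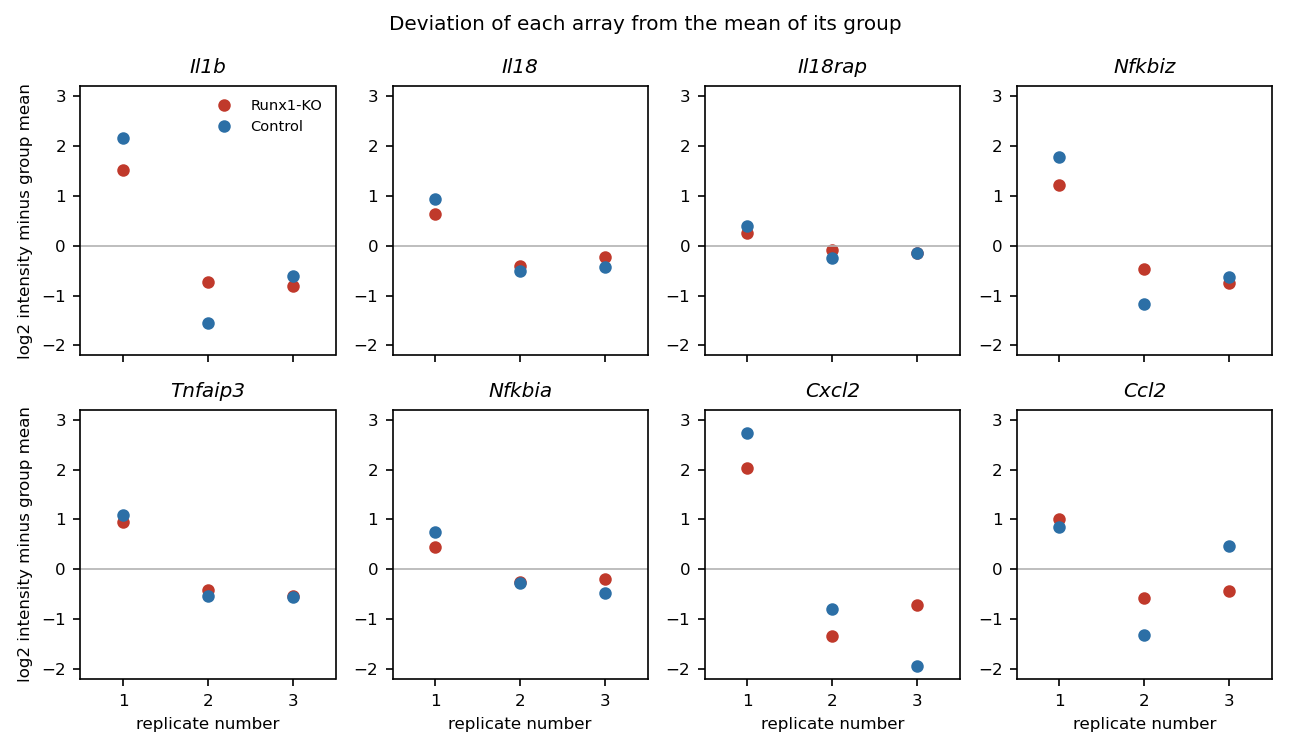
Log2 intensity minus the mean of the group, by replicate number, for 3 members and 5 IL-1 responsive genes, with Runx1-KO in red and Control in blue. Il18rap is shown on its first probe set, and its second did not have this ordering. The responsive genes shown were taken from the 8 of 16 listed that have the array numbered 1 highest in both groups. That it is highest in all 8 panels follows from this choice.

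Il1r2 and Il1rn had their own closest companions. Over the 6 arrays the genes whose log2 levels followed Il1r2 most closely were Klf7 (r = 0.995), Apmap (0.992), Ifitm1 (0.992), Tnpo1 (0.986) and Zfp719 (0.984). Ifitm1, an interferon-inducible membrane protein gene, had 68.1, 55.7 and 65.0 in Runx1-KO and 29.0, 20.8 and 27.5 in Control. Those nearest Il1rn were Apobec1 (0.996), Psmd13 (0.995), Cbfb (0.994), Ndufaf3 (0.993) and Rgs10 (0.992). Cbfb, the partner subunit of RUNX proteins, had 963, 1021 and 1031 in Runx1-KO and 1368, 1279 and 1269.96 in Control. Such values largely restate the group difference. With group means subtracted the closest to Il1r2 were Kcnc1, Ccdc125 and Rcbtb1 (0.993, 0.992 and 0.989), and to Il1rn Cd80, Trak2 and Zmym5 (0.989, 0.988 and 0.987), a different set for each. Between Il1r2 and Il1rn themselves r was -0.89 over the levels and 0.33 after subtraction, and between Il1r2 and Il18rap it was 0.94 and 0.41.

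The receptor genes that separated the groups are not next to each other on the chromosome. In RefSeq the receptor genes run along mouse chromosome 1 as Il1r2, Il1r1, Il1rl2, Il1rl1, Il18r1 and Il18rap. The genes at the ends of this block, Il1r2 and Il18rap, separated the groups, and Il1r1 between them did not. Il1rl2, the receptor for IL-36 cytokines, had 74.3, 109.1 and 85.1 in Runx1-KO and 60.2, 36.0 and 70.6 in Control, without overlap (0.72 ± 0.31, limma adjusted p = 0.409). Flanking Il1r2, Map4k4 differed by -0.31 ± 0.30 (adjusted p = 0.714). On chromosome 2, Psd4 next to Il1rn differed by -0.12 ± 0.19 (adjusted p = 0.825). Pax8, the gene after Psd4, had 37.2, 28.5 and 33.3 in Runx1-KO and 120.4, 91.8 and 71.1 in Control, without overlap and in the same direction as Il1rn (-1.49 ± 0.25, adjusted p = 0.152).

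The rest of the family was only partly detected. Of 12 other ligands, receptors and inhibitors, 0 passed in either direction by limma over all genes, and 6 were below the limit on all arrays. At an unadjusted limma p under 0.05, 2 were higher (5.62% of all genes) and 0 lower (7.01%). The median log2 difference was 0.47, against -0.01 over all genes. It was 0.12 with 16 added to each intensity, 0.15 without Control 1 and 0.67 with dim genes left out. Il1f9, which encodes the epithelial and myeloid cytokine IL-36gamma, had 187.7, 86.0 and 51.2 in Runx1-KO and 50.4, 13.9 and 15.5 in Control. The groups did not overlap, with 1 of 3 Control arrays above background, and the gene was at least 3.73-fold higher (limma adjusted p = 0.312). Il18bp, the secreted inhibitor of interleukin-18, had 45.7, 56.1 and 45.5 in Runx1-KO and 28.3, 39.8 and 28.3 in Control (0.62 ± 0.22, adjusted p = 0.344). Sigirr, a receptor that dampens IL-1 signalling, overlapped (0.27 ± 0.56, adjusted p = 0.876).

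Genes that activate the ligands were above background on all arrays. Of 13 measured inflammasome and processing genes, 0 passed in either direction by limma, and the median log2 difference was -0.04. At an unadjusted limma p under 0.05, 0 were higher (5.62% of all genes) and 2 lower (7.01%). Gsdmd, the pore-forming protein through which mature IL-1beta leaves the cell, had 312, 281 and 237 in Runx1-KO and 566, 509.8 and 471 in Control (-0.90 ± 0.20, limma adjusted p = 0.203). Naip2, a sensor of bacterial secretion systems, had 284, 244 and 207 in Runx1-KO and 536, 517 and 464 in Control (-1.05 ± 0.20, adjusted p = 0.179). Neither gene overlapped between the groups. Casp1, the enzyme that cleaves the IL-1beta and interleukin-18 precursors, differed by -0.15 ± 0.22 (adjusted p = 0.822), and Nlrp3, the sensor that recruits it, by 0.27 ± 0.47 (adjusted p = 0.850). Pycard, the adaptor between them (-0.41 ± 0.33, adjusted p = 0.640), and Casp4 (0.52 ± 0.25, adjusted p = 0.444), which cleaves Gsdmd in response to lipopolysaccharide, overlapped as well. Of the 3 Pycard probe sets, 2 were higher in Runx1-KO. Casp1 and Nlrp3 were chosen for their role after their values were seen.

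Among 18 measured genes acting just below the receptor, 0 passed in either direction by limma. At an unadjusted limma p under 0.05, 3 were higher (5.62% of all genes) and 0 lower (7.01%). The median log2 difference was 0.15. That median was -0.0038 over all probe sets, 0.02 with the mean of probe sets and 0.06 without Runx1-KO 3. Peli2, an E3 ubiquitin ligase of the IRAK complex, had 316, 272 and 227 in Runx1-KO and 53.0, 77.7 and 127.9 in Control. All Runx1-KO arrays lay above all Control arrays, 3 of 3 probe sets were higher, and the log2 difference was 1.74 ± 0.35 (limma adjusted p = 0.190). Traf6, the ubiquitin ligase downstream of MyD88, had 319.5, 352 and 439 in Runx1-KO and 174, 245 and 268 in Control (0.71 ± 0.25, adjusted p = 0.339), and 5 of its 5 probe sets were higher. Myd88 itself differed by 0.54 ± 0.23 (adjusted p = 0.397). Ikbkg, the regulatory subunit of the IkB kinase, differed by 0.65 ± 0.21 on its brightest probe set (adjusted p = 0.323), but 4 of its 6 probe sets were lower.

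Of the 16 IL-1 responsive genes, 0 passed in either direction by limma. At an unadjusted limma p under 0.05, 3 were higher (5.62% of all genes) and 1 lower (7.01%). The median log2 difference was 0.19. It was 0.03 without Control 3, 0.52 without Control 1 and 0.36 without Runx1-KO 3. Saa3, an acute-phase apolipoprotein gene induced by IL-1, had 279, 585 and 427 in Runx1-KO and 105.7, 63.8 and 43.3 in Control, a log2 difference of 2.63 ± 0.42 (adjusted p = 0.142). Lcn2, a siderophore-binding protein of neutrophil granules and also on the neutrophil list, had 987, 1281 and 1105 in Runx1-KO and 882, 203 and 367 in Control (1.47 ± 0.52, adjusted p = 0.345). Cxcl1, a neutrophil chemokine, was at least 1.77-fold higher (adjusted p = 0.154), with 1 of 3 Control arrays above background. Ccl2, a monocyte chemokine, had 66.5, 22.1 and 24.2 in Runx1-KO and 189.9, 42.1 and 146.5 in Control, which overlapped (-1.68 ± 0.69, adjusted p = 0.396). Saa3, Lcn2 and Cxcl1 did not follow the ordering by array number described for Nfkbiz and Cxcl2.

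**Figure D4:**
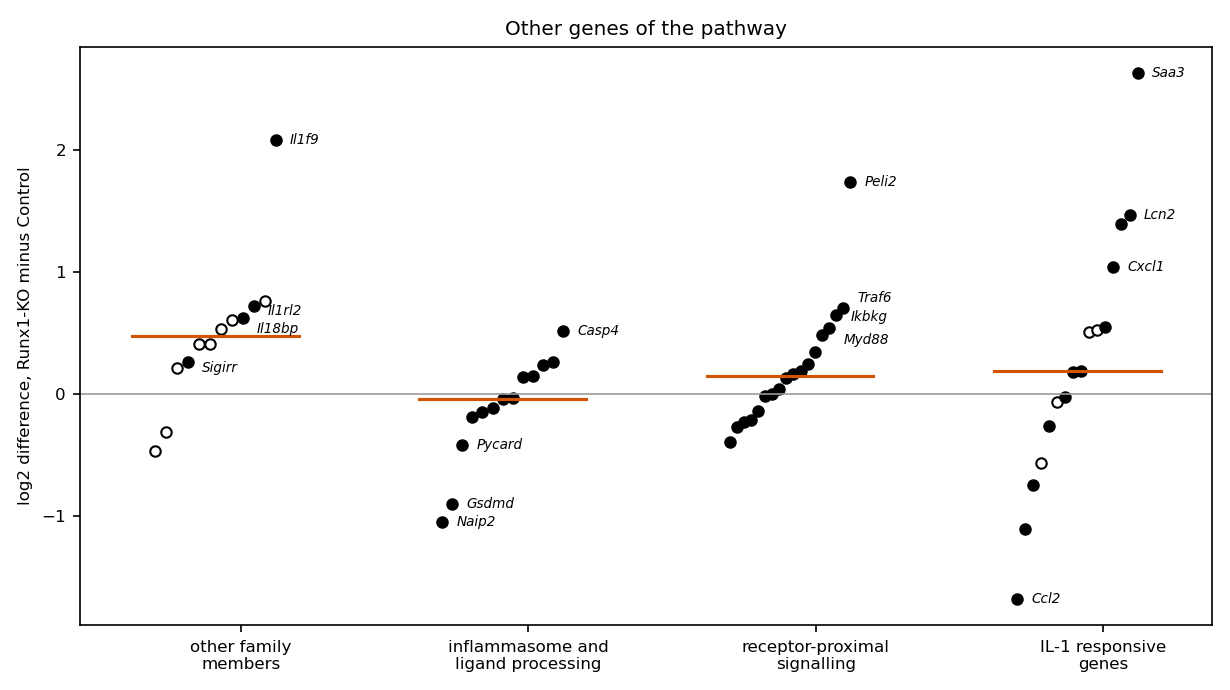
Log2 difference, Runx1-KO minus Control, of each measured gene on 4 pathway lists, with an orange line at the list median; open points were above the background limit on fewer than 3 arrays, and the 4 genes of lowest p per list are named. The medians are 0.47, -0.04, 0.15 and 0.19 from left to right, and no point passed the limma threshold over all genes.

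Sums of neutrophil and of monocyte and macrophage markers did not overlap between the groups. Of 15 measured mature neutrophil genes, a list without Il1r2, 14 had a difference above 0 and their summed intensity was 18732 to 22348 in Runx1-KO and 10689 to 16807 in Control. Bright genes weigh most in such a sum. Here S100a8 had 5616 to 6478 in Runx1-KO and 3213 to 5432 in Control, and S100a9 5744 to 6455 and 3589 to 5150. Cxcr2, the neutrophil chemokine receptor, was above background on 3 Runx1-KO arrays and 1 Control array. Il1r2 was higher on the same arrays as this list, and the part of neutrophil content in its difference was not tested. Of 16 measured monocyte and macrophage genes, 14 had a difference below 0, with sums of 3707 to 4112 in Runx1-KO and 5602 to 8791 in Control. C1qa was below the limit on all arrays, and C1qc overlapped (-0.15 ± 0.31). C1qb, above it on all arrays, had 57.8, 50.7 and 24.7 in Runx1-KO and 184.9, 80.1 and 153.8 in Control. Adgre1, which encodes F4/80, had 66.3, 57.9 and 73.0 in Runx1-KO and 167, 205 and 131 in Control. Il1rn was lower where this list was lower and the neutrophil list was higher, and the part of macrophage or neutrophil content was not tested.

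Il18rap is also used by T and NK cells, whose markers were near background here. Of 13 measured T and NK genes, 0 were above the limit on all arrays, and their median, -1.09 on the log2 scale, was -0.09 once dim genes were removed and -0.58 without Control 1. They summed to 144 to 207 in Runx1-KO and 213 to 307 in Control, with 10 differences below 0. Cd3d, Cd3e and Cd3g, parts of the T cell receptor complex, were below the limit on all Runx1-KO arrays. Without overlap, 1 gene of the list was higher in Runx1-KO (9.17% of all genes) and 7 were lower (11.7%). The higher one was Nkg7, a granule protein of NK cells, with 35.7, 57.6 and 58.3 in Runx1-KO and 19.1, 18.6 and 4.11 in Control (limma adjusted p = 0.296). Gzma, Ncr1 and Eomes were among the lower ones, with log2 differences of -2.87, -0.81 and -1.09. Each was below the limit on all Runx1-KO arrays. In Control, Gzma was above it on 2 arrays, Eomes on 1 and Ncr1 on 0, so the sizes of these differences cannot be stated. The part of T and NK cells in the Il18rap difference was not tested. Sums of mast cell and basophil genes (634 to 851 in Runx1-KO, 417 to 835 in Control), B cell genes (309.8 to 550.2 in Runx1-KO, 319 to 456 in Control) and stromal and endothelial genes (224 to 254 in Runx1-KO, 188 to 473 in Control) overlapped between the groups. Of these marker lists, 0 genes passed by limma over all genes. Under some other settings 1 or 2 neutrophil genes, 1 or 2 monocyte and macrophage genes and 1 T and NK gene passed, and Cxcr2 had an adjusted p of 0.0523.

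**Figure D5:**
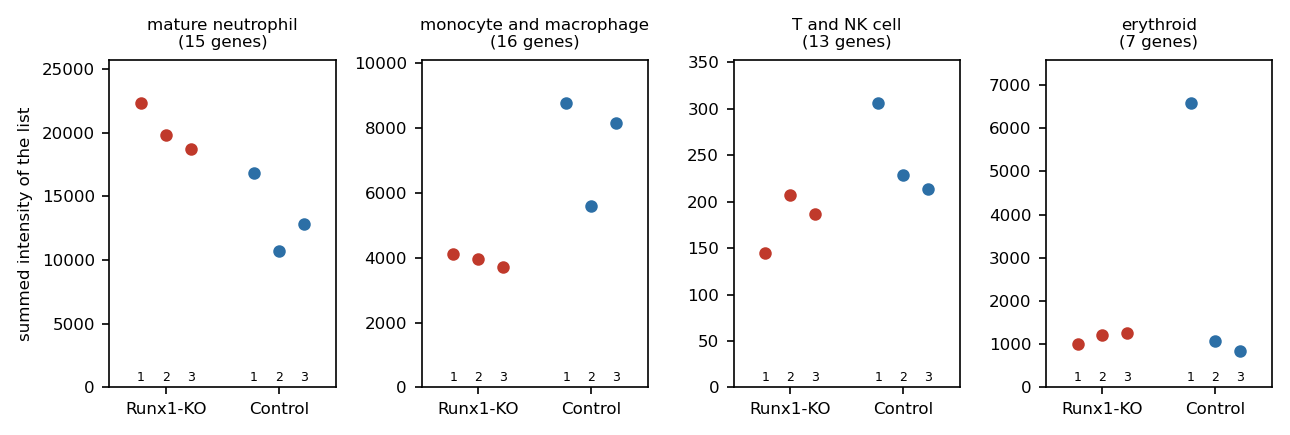
Summed intensity of 4 marker lists on each array (linear axes from 0), Runx1-KO in red and Control in blue, numbered by replicate. Neutrophil sums are higher and monocyte and macrophage sums lower in all Runx1-KO arrays, and the erythroid sum is high in Control 1 alone.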

How the data were processed

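Total RNA of 6 leukemias was made into cDNA and biotin-labelled with a NuGEN Ovation kit, according to the labels' protocols. The deposited values are linear probe set intensity values on a scale already common to the arrays. The authors' summarisation, background correction and normalization are not given in the sources used here. Of 45101 probe sets, 34958 had 1 symbol in the platform annotation, 932 several and 9211 none, and only the first were used. The probe set of highest mean log2 over the arrays stood for each of 18194 genes. Log2 values were compared with limma 3.58.1 in R 4.3.3 (lmFit, eBayes, no covariate, no filter). The test was two-sided and adjusted over all genes by Benjamini-Hochberg with a threshold of 0.05. The fit was also run on simulated data with independent noise and planted changes. That simulation held no array effects such as the Gapdh ratio or the erythroid signal, so it says nothing about them. Differences are Runx1-KO minus Control with the moderated SE.

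The background limit is a choice made here. A fold against a group with arrays below it is a bound, with those arrays raised to their limits, and is given where the other group lay above the limit on all arrays. Named pathway genes were those past the threshold, else the 4 of lowest p per list above the limit on at least 3 arrays. Genes most like Il1r2 and Il1rn were ranked by Pearson r over such genes, and the same ranking for Il1b, Il18 and Il18rap was added after their values were seen. The members and lists were chosen with earlier results of these data known. Il36rn was read under its older symbol Il1f5. The alternatives were other normalizations, an offset of 16, a filter on dim genes, all or averaged probe sets, other variance models, a threshold of 0.1, the replicate number as a block, and leaving out arrays.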

Additional observations from a re-analysis of the deposited data

How the results depend on the processing

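On the log2 scale Il1r2 ran from 2.74 to 3.53, Il18rap from 1.27 to 1.62 and Il1rn from -1.35 to -0.96 over 16 alternatives. Their direction held in each, but their groups did not overlap, so leaving out arrays could not turn it. The dim filter, all probe sets, the variance trend and the replicate block left these differences at their main values. Il1rap turned to -0.22 with the mean of its probe sets. Il1b ran from -1.91 without Control 2 to -0.05 without Control 1 and Il18 from -0.39 to 0.39, both with arrays below background. Over all genes, 6 were higher and 10 lower. The counts were 25 and 39 with the offset of 16, 14 and 20 without dim genes, 12 and 18 over all probe sets, 39 and 65 with a variance trend and robust fitting, 27 and 44 with array weights, and 17 and 19 at an adjusted p under 0.1. Without any 1 array they were 1 higher and 1 to 2 lower, and 0 and 0 without both arrays numbered 1, a setting chosen after seeing the data, with fewer arrays in each of these. With the replicate number as a block they were 0 and 0. Same-numbered arrays correlated at r = -0.01, -0.09 and 0.04 over the deviations of all genes, which does not pair them by the rule used (each above 0.1), and whether the numbers mark a shared day was not tested. The variance trend passed 1 inflammasome gene, Naip2 (-1.05, limma adjusted p = 0.0474), and 1 IL-1 responsive gene, Saa3 (2.63, adjusted p = 0.0265), where the 4 pathway lists otherwise stayed at 0. Of the marker lists, mature neutrophil genes passed 1 with quantile normalization, median centring, the offset, dim genes left out, the mean of probe sets or array weights, and 2 with the variance trend. Monocyte and macrophage genes passed 1 with the offset and 2 with the variance trend, and T and NK genes 1 with array weights. The median of the inflammasome list ran from -0.25 to 0.09 and that of the T and NK list was -0.09 without dim genes. The causes of these shifts were not tested. With 3 arrays a group, the number of arrays limits the precision.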
